A study of Homo sapiens with 15 samples.

Results

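The replication-dependent histone genes encode the H1 linker histone and the core histones H2A, H2B, H3 and H4 that are made for new chromatin. They were taken as the rows of the deposited table whose symbol begins with HIST1 to HIST4 followed by a histone class, with pseudogenes left out. The pattern matched 58 of 12261 genes, HIST2H2BA was left out as a pseudogene, and 57 genes remained. They were 4 H1, 17 H2A, 16 H2B, 11 H3 and 9 H4 genes, of which 43 lie in the HIST1 cluster, 10 in HIST2, 3 in HIST3 and 1 in HIST4. The cells were HEK-293 Trex, a human embryonic kidney cell line in which doxycycline switches on an integrated construct. They carried CLIP-tagged UPF1 isoform 1 (UPF1-1), CLIP-tagged UPF1 isoform 2 (UPF1-2) or GFP, and all cells received 200 ng/mL doxycycline. Total RNA was sequenced from the UPF1-1, UPF1-2 and GFP lines, and the RNA pulled down with the tag (IP) from the UPF1-1 and UPF1-2 lines, with 3 libraries in each of the 5 groups. Each construct was in its own line, so effects of the protein and differences between lines cannot be told apart, and no purification from GFP cells was analysed here.

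Replication-dependent histone mRNAs have no introns and mostly end in a conserved stem-loop in place of a poly(A) tail. The stem-loop binding protein SLBP accompanies them through processing, export and translation, and the mRNAs are made in S phase and degraded quickly when DNA synthesis stops. UPF1, an RNA helicase best known for nonsense-mediated decay, is also recruited to SLBP for that degradation, which proceeds through uridylation of the 3′ end, decapping and exonucleases. Some of the genes can also give polyadenylated mRNAs. Libraries were made from RNA depleted of ribosomal RNA, per the labels' protocols.

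Per the file headers the values were TPM, relative transcript levels that take account of transcript length. The listed genes held between 122456 and 189738 TPM in the total RNA libraries, and between 447478 and 699422 TPM in the IP libraries. The table held no library depth. UPF1, the induced gene, averaged 129 ± 49.8 TPM (SD, n = 3) in total RNA of UPF1-1 cells, 104 ± 57.9 TPM in that of UPF1-2 cells and 5.20 ± 2.93 TPM in that of GFP cells. Of 7 genes listed as HEK-293 lineage markers 5 were in the table, while none of 4 blood markers and none of 2 liver markers was. Replicate 3 stood apart from replicates 1 and 2 in every group, so same-numbered libraries were compared within their number. HIST2H3A and HIST2H3C had identical values in all 15 libraries and are 1 measurement listed under 2 symbols. Both symbols are included in the counts of genes below, so this measurement enters the H3 counts 2 times. Histone copies are nearly identical in sequence and the quantifier divides shared reads by estimate, so the value of a single copy is uncertain.

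Windows of 250 bases before the start were found in RefSeq (GRCh38.p14) for 54 of the 57 genes, and 4 genes had more than 1 window. The octamer ATTTGCAT, the CCAAT box and the TATAAA box were searched on both strands, overlaps included. The octamer was present in the windows of 24 genes (44.4%), against 1.63% of 35116 promoter windows in all. It was found in 12 of 16 H2B and 11 of 16 H2A genes, in 1 of 11 H3 genes, and in no H1 or H4 gene with a window (4 and 7 genes). CCAAT was found in 47 genes (87.0%), against 32.0% of all windows. Every H1, H2A, H2B and H3 gene with a window held CCAAT and none of the 7 H4 genes did. TATAAA was found in 39 genes (72.2%), against 10.7% of all windows. Some H2A and H2B genes lie head to head, with 9 pairs found whose windows overlap. A motif between the starts of such a pair was counted for both genes, so these are counts of genes and not of separate sites. Below are the windows of the genes whose RNA differed most between the lines (HIST1H2BI, HIST1H2BG, HIST1H2AL and HIST1H3F), beside those of a more abundant H2B and H3 gene (HIST1H2BC and HIST1H3B). Sequences run 5′ to 3′ towards the gene, and capitals mark the 3 motifs on either strand. The windows are chr6:26272681-26272930 (plus strand), chr6:26216689-26216938 (minus strand), chr6:26123927-26124176 (minus strand), chr6:27865067-27865316 (plus strand), chr6:26250636-26250885 (minus strand) and chr6:26032100-26032349 (minus strand), in the order printed.
HIST1H2BI: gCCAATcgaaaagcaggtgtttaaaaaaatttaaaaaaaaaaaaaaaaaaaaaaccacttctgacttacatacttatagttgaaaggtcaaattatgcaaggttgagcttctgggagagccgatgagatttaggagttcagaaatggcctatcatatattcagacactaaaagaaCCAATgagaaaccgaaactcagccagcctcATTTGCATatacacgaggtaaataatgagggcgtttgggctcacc
HIST1H2BG: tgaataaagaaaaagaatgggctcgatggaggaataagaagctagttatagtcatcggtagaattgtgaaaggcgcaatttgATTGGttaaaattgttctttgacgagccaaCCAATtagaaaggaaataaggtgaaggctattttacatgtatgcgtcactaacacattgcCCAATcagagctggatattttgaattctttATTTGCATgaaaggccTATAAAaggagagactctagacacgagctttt
HIST1H2BC: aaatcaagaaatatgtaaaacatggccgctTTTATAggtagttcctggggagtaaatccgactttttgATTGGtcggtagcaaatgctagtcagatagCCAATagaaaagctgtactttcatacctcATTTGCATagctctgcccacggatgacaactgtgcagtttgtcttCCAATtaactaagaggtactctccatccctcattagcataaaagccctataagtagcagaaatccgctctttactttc
HIST1H2AL: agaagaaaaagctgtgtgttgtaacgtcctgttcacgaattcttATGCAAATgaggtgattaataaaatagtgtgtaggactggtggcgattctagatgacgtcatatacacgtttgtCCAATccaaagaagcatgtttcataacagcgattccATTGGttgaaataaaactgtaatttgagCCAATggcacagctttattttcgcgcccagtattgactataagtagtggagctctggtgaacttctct
HIST1H3F: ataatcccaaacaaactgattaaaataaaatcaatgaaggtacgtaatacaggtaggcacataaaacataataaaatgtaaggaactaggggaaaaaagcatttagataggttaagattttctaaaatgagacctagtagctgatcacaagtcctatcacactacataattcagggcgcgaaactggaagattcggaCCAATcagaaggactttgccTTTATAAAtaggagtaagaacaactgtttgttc
HIST1H3B: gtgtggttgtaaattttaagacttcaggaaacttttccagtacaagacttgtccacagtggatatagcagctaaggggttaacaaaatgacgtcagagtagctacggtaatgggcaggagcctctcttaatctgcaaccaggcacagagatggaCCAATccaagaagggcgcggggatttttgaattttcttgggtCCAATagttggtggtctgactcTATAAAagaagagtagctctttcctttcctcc
The octamer began 45 bases before the start in HIST1H2BI, 48 in HIST1H2BG and 123 in HIST1H2BC. In HIST1H2AL it lay on the opposite strand, 206 bases before the start. Neither H3 window held it, while both had a TATAAA box, 31 bases before the start in HIST1H3F and 32 in HIST1H3B. A match is a run of letters in the window and was not tested as a site.

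Over the 9 total RNA libraries, 33 of the 57 genes averaged at least 100 TPM and 5 at least 1000 TPM. HIST2H2AA4, a core H2A gene of the HIST2 cluster, led its class with a mean of 1922 TPM, or 36.2% of the H2A sum. HIST2H2AA3 of the same cluster had 18.4 TPM, and how the quantifier divided reads between copies was not tested. HIST1H3B had 1875 TPM and 57.3% of the H3 sum, HIST1H4C 1531 TPM and 34.7% of the H4 sum, and HIST1H1E 1320 TPM and 50.2% of the H1 sum. H2B was spread more evenly, with HIST2H2BF at 825 TPM (20.2%), HIST1H2BD at 815 TPM and HIST1H2BC at 612 TPM. At the other end, HIST1H2AA, HIST1H2AJ, HIST1H2BA, HIST1H2BE, HIST1H3C and HIST3H3 each averaged under 1 TPM. These 6 failed the filter, which asked for 1 TPM or more in 3 or more of the libraries fitted. The other 51 passed it in both fits, and 50 of them were at or above 1 TPM in all 9 total RNA libraries, so their passing did not hinge on 1 group.

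The 57 genes together held 14.97% ± 1.43 (SD, n = 3) of the listed TPM in UPF1-1 total RNA and 12.3% ± 1.99 in UPF1-2 total RNA, against 12.3% ± 1.27 in GFP total RNA. Their summed level was 23463 ± 808 TPM with UPF1-1, 17400 ± 1490 TPM with UPF1-2 and 18267 ± 511 TPM with GFP. UPF1-1 cells were the high group on both scales. On the TPM scale their 3 libraries did not overlap with the other groups, while on the scale of shares replicate 3 of UPF1-1 cells lay within the range of UPF1-2 cells.

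**Figure D1:**
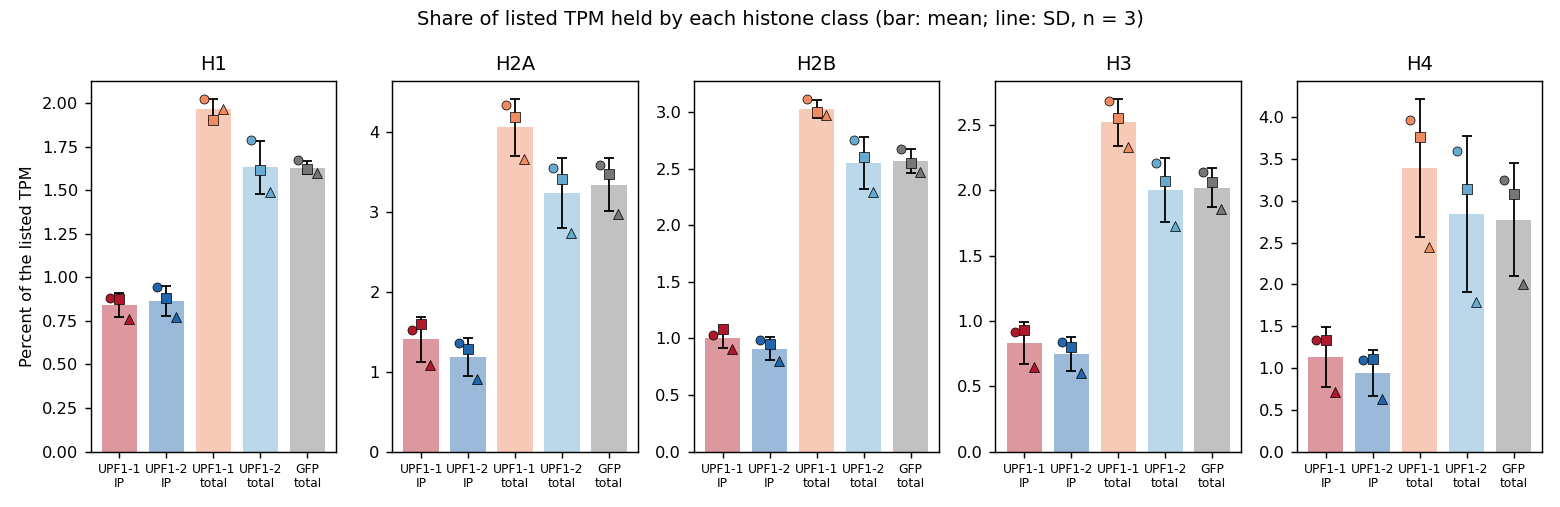
Share of the listed TPM (percent, linear axis from 0) held by each histone class in each library; bars are group means, lines the SD over 3 libraries, circles replicate 1, squares replicate 2 and triangles replicate 3. The 57 genes together averaged 14.97% in UPF1-1 total RNA and 12.3% in both UPF1-2 and GFP total RNA, while the UPF1-1 IP averaged 5.21% and the UPF1-2 IP 4.65%.

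The first comparison set total RNA of UPF1-1 cells against GFP cells. Most histone genes were higher with UPF1-1 by a small amount, and 4 copies were lower by a larger one. Differences are log2 ratios after adding 0.5 TPM and setting library medians equal, tested with limma with the replicate number as a block and Benjamini-Hochberg adjustment over 9325 genes. Of the 51 genes, 24 rose and 4 fell at an adjusted p under 0.05, where 8.38% of all genes rose and 7.79% fell. The median difference was 0.24 over the histone genes and -0.01 over all genes. In 43 of the 51 the UPF1-1 library was higher within each of the 3 replicate numbers, against 28% of all genes, and in 7 it was lower within each, against 32.9%. Rises were spread over the classes, with 1 of 4 H1 genes, 8 of 15 H2A, 4 of 14 H2B, 5 of 9 H3 and 6 of 9 H4.

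HIST1H3F, a low-abundance H3 copy, had 22.6, 21.9 and 15.3 TPM in UPF1-1 total RNA, against 7.71, 8.57 and 5.98 TPM in GFP total RNA. All UPF1-1 libraries were above all GFP libraries, and the log2 difference was 1.27 ± 0.06 (SE) with an adjusted p of 1.3e-05 in limma. It also had 12.9, 12.7 and 11.2 TPM in UPF1-2 total RNA, between the other lines. The authors' deposited table (sleuth) called it higher in UPF1-1 as well, with a q of 0.021, and it was the only one of the 57 genes so called, where 0.245% of all genes were.

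The other rises were smaller. HIST1H2AD, a core H2A gene, had 251, 239 and 325 TPM in UPF1-1 total RNA, against 153, 163 and 192 TPM in GFP total RNA. Its difference was 0.59 ± 0.07 with an adjusted p of 0.0017 in limma, and the groups did not overlap. HIST1H2BF, its H2B neighbour, had 52.6, 49.7 and 63.3 TPM in UPF1-1 total RNA and 30.7, 31.6 and 41.1 TPM in GFP total RNA, a difference of 0.59 ± 0.09. HIST1H4H followed at 0.51 ± 0.06, with 122, 105 and 147 TPM in UPF1-1 total RNA and 71.0, 73.0 and 104 TPM in GFP total RNA. HIST1H4J, HIST1H2AK, HIST1H2AM and HIST1H1E differed by 0.32 to 0.40. The most abundant H3 copy, HIST1H3B, had 2345, 2199 and 2340 TPM in UPF1-1 total RNA, against 1666, 1697 and 1802 TPM in GFP total RNA, a difference of 0.33 ± 0.07 with an adjusted p of 0.018 in limma.

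The 4 genes that fell were H2A or H2B copies. HIST1H2BI had 1.73, 1.71 and 2.19 TPM in UPF1-1 total RNA, against 8.56, 9.96 and 9.33 TPM in GFP total RNA. Its difference was -2.13 ± 0.10 with an adjusted p of 1.3e-05 in limma, and the groups were far apart. HIST1H2AL had 14.6, 14.5 and 20.5 TPM in UPF1-1 total RNA and 30.9, 33.5 and 42.6 TPM in GFP total RNA, a difference of -1.18 ± 0.08. HIST1H2BG had 19.2, 17.7 and 20.5 TPM in UPF1-1 total RNA and 30.1, 31.1 and 34.1 TPM in GFP total RNA, a difference of -0.81 ± 0.08. HIST1H2AE, which lies beside HIST1H2BG, had 29.8, 26.1 and 41.1 TPM in UPF1-1 total RNA and 39.4, 39.1 and 61.6 TPM in GFP total RNA, a difference of -0.61 ± 0.06. In HIST1H2AE the raw TPM of the groups overlapped, since replicate 3 was high in both, and they separated after the library medians were set equal. All 4 passed the threshold after any 1 replicate number was left out. In the authors' deposited table HIST1H2BI and HIST1H2AL were called lower, with q of 7.4e-15 and 8.1e-06, where 0.123% of all genes were.

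The count of rises depended on the replicate block. Without it, limma on the centred values called no histone gene higher and 2 lower (HIST1H2BI and HIST1H2AL), where 0.118% and 0.0536% of all genes were called; 11 of the 51 had an unadjusted p under 0.05. Without replicate 2 the blocked count was 3 higher and 4 lower.

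**Figure D2:**
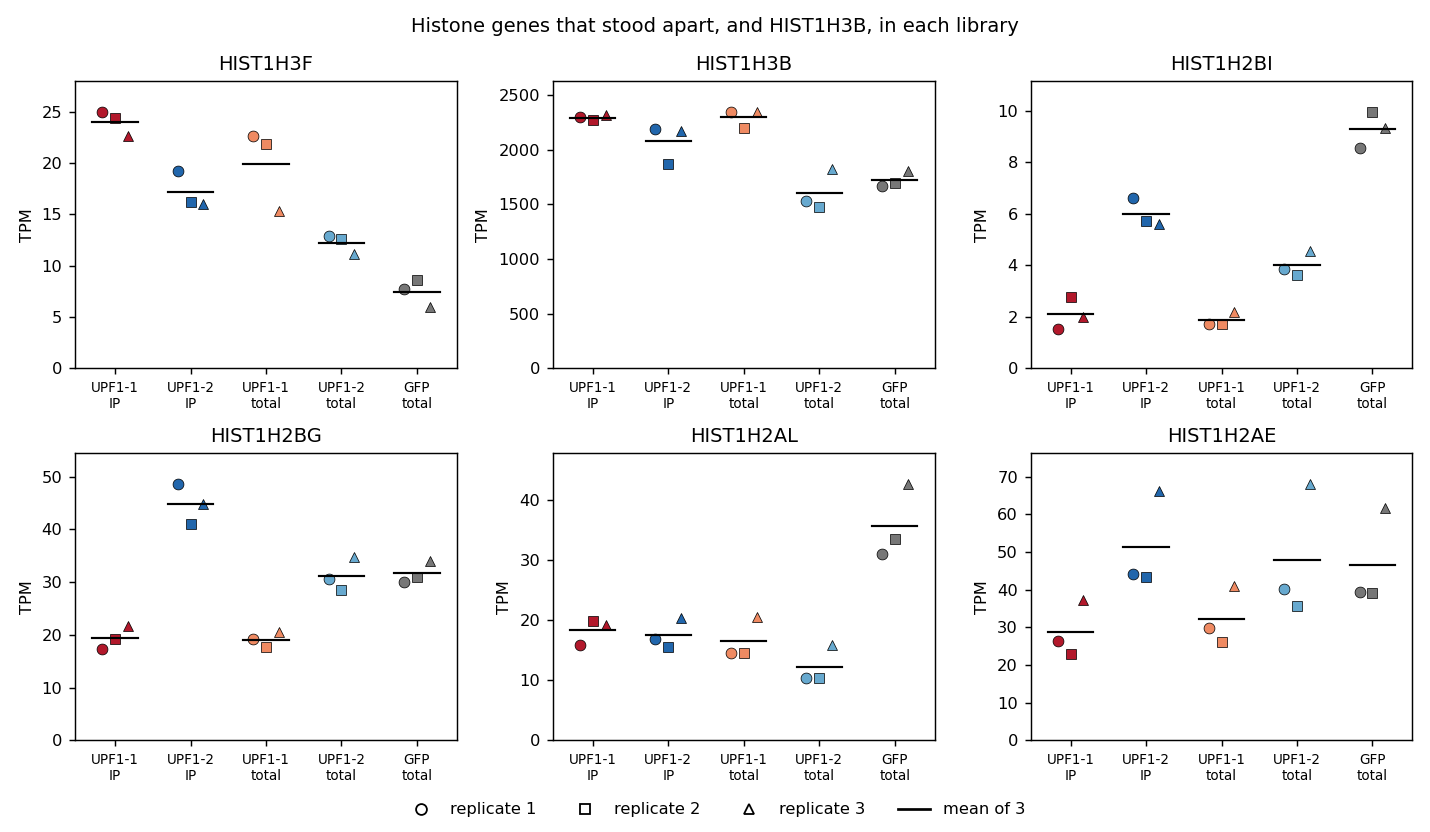
TPM (linear axes from 0) of 6 histone genes in each library; circles are replicate 1, squares replicate 2, triangles replicate 3, and lines the mean of 3. In total RNA HIST1H3F is highest and HIST1H2BI lowest in UPF1-1 cells, HIST1H2AL is lower in both UPF1 lines than in GFP cells, and HIST1H2BG and HIST1H2AE are lower in UPF1-1 than in UPF1-2 cells.

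The second comparison set total RNA of UPF1-2 cells against GFP cells. Here few histone genes passed the test: 1 rose and 2 fell, where 0.279% of all genes rose and 0.0965% fell. The median difference was -0.09 over the 51 genes and -0.02 over all genes. HIST1H2AL had 10.5, 10.4 and 15.8 TPM in UPF1-2 total RNA, against 30.9, 33.5 and 42.6 TPM in GFP total RNA. Its difference was -1.55 ± 0.08 with an adjusted p of 3.1e-05 in limma, and the authors' deposited table called it lower with a q of 2.0e-11, as it did 0.0163% of all genes. HIST1H2BI had 3.87, 3.64 and 4.56 TPM in UPF1-2 total RNA, against 8.56, 9.96 and 9.33 TPM in GFP total RNA, a difference of -1.14 ± 0.10 with an adjusted p of 0.0029 in limma. HIST1H3F, given because it was the only rise, differed by 0.67 ± 0.06 with an adjusted p of 0.0029 in limma. Its raw TPM groups did not overlap, and after the medians were set equal they did. Without the replicate block only HIST1H2AL passed (0.0107% of all genes fell and 0.0214% rose, and 3 histone genes had an unadjusted p under 0.05), and without replicate 2 HIST1H2BI and HIST1H3F did not. In 15 of the 51 genes the UPF1-2 library was lower within each replicate number, against 18.4% of all genes, and in 1 it was higher within each, against 14.7%.

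The third comparison set total RNA of UPF1-1 cells against UPF1-2 cells, and shares its libraries with the comparisons above. Histone genes were again higher with UPF1-1: 31 of 51 rose and 3 fell, where 5.49% of all genes rose and 4.02% fell. The median difference was 0.33 over the histone genes and 0.00 over all genes. In 40 genes the UPF1-1 library was higher within each replicate number, against 23.5% of all genes, and in 3 lower within each, against 20.4%. Rises passed in 1 of 4 H1, 9 of 15 H2A, 8 of 14 H2B, 6 of 9 H3 and 7 of 9 H4 genes. HIST1H4H had 122, 105 and 147 TPM in UPF1-1 total RNA, against 64.8, 65.7 and 106 TPM in UPF1-2 total RNA, and differed by 0.63 ± 0.06 with an adjusted p of 0.0019 in limma. HIST1H2AD differed by 0.57, HIST1H2AM by 0.50, HIST1H2BL and HIST1H4J by 0.49, HIST2H2AA4 by 0.48, HIST1H2BF by 0.44 and HIST1H2BC by 0.42. HIST2H2AA4, the H2A copy with the highest estimated TPM, had 2436, 2206 and 2401 TPM in UPF1-1 total RNA, against 1488, 1502 and 1886 TPM in UPF1-2 total RNA, with no overlap.

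HIST1H2BI, HIST1H2BG and HIST1H2AE fell with UPF1-1 relative to UPF1-2. HIST1H2BG had 19.2, 17.7 and 20.5 TPM in UPF1-1 total RNA, against 30.6, 28.4 and 34.8 TPM in UPF1-2 total RNA, a difference of -0.75 ± 0.08. HIST1H2AE had 29.8, 26.1 and 41.1 TPM with UPF1-1 and 40.2, 35.7 and 68.1 TPM with UPF1-2, a difference of -0.59 ± 0.06. HIST1H2BI differed by -0.99 ± 0.10. The 3 adjusted p in limma were between 0.0027 and 0.0029, and the authors' deposited table called HIST1H2BI alone among histone genes, with a q of 0.0499, where 0.0408% of all genes were called lower. HIST1H2AL, low in both UPF1 lines, was 0.36 ± 0.08 higher in UPF1-1 than in UPF1-2. Its raw TPM overlapped, at 14.6, 14.5 and 20.5 TPM with UPF1-1 and 10.5, 10.4 and 15.8 TPM with UPF1-2. Without the block limma called no histone gene and no gene of the table in either direction, with 21 histone genes and 477 genes in all at an unadjusted p under 0.05. Without replicate 2 the blocked count was 0 in both directions, and without replicate 3 it was 11 higher and 3 lower.

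**Figure D3:**
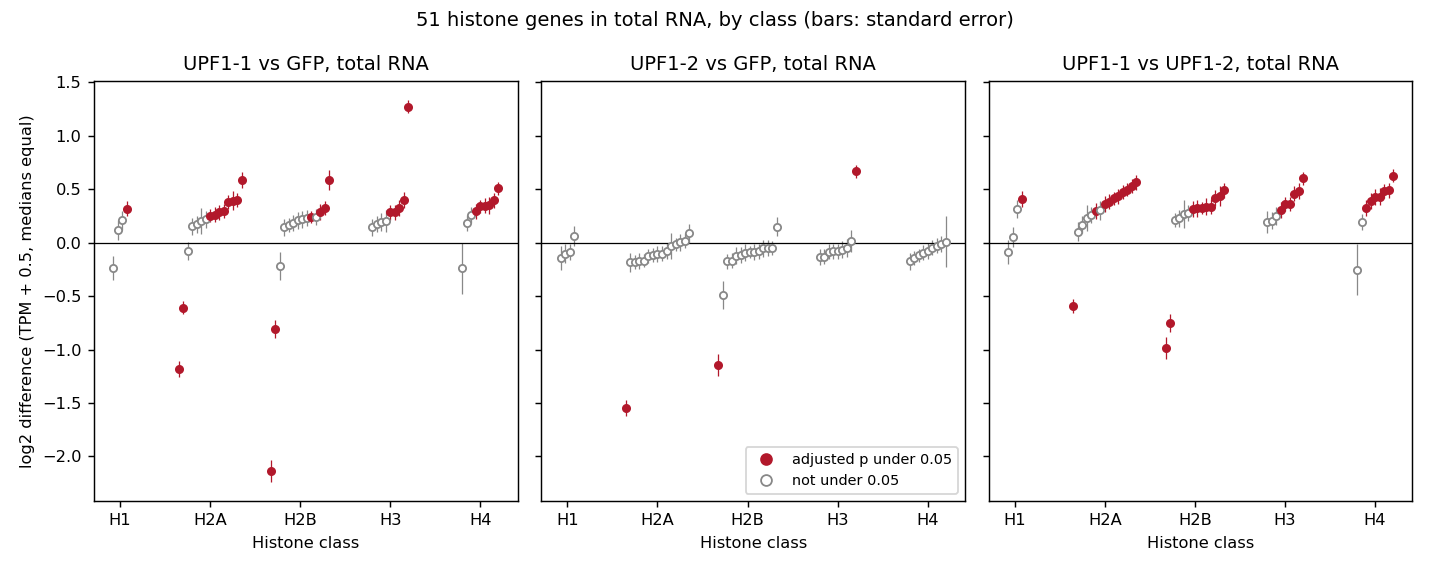
log2 difference of each of the 51 tested histone genes in total RNA, by class, in the 3 comparisons of lines; bars are standard errors and filled points have an adjusted p under 0.05 in limma. UPF1-1 cells show 24 rises and 4 falls against GFP cells and 31 rises and 3 falls against UPF1-2 cells, and UPF1-2 cells 1 rise and 2 falls against GFP cells.

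The summed TPM of each class was compared next; since copies differ in effective length, these sums also depend to a degree on how reads were divided among copies. Against GFP cells, UPF1-1 cells had a mean log2 ratio of 0.26 ± 0.05 (SD over 3 replicate numbers) for H1, 0.27 ± 0.03 for H2A, 0.23 ± 0.04 for H2B, 0.31 ± 0.03 for H3 and 0.28 ± 0.02 for H4. Each class was higher within each number. Against UPF1-2 cells, UPF1-1 cells had 0.35 ± 0.19 for H1, 0.41 ± 0.14 for H2A, 0.33 ± 0.17 for H2B, 0.41 ± 0.15 for H3 and 0.36 ± 0.23 for H4, again higher within each number. UPF1-2 cells against GFP cells had -0.14 ± 0.11 for H2A and -0.08 ± 0.22 for H4 at the extremes, with both signs among the numbers for H1, H2B, H3 and H4. Leaving out 1 number moved these by over 1.5 times, to between -0.19 and 0.03 for H4. The H4 sum held a gene that behaved unlike the rest: HIST2H4A had 653, 625 and 73.0 TPM in replicates 1, 2 and 3 of UPF1-1 cells, 948, 565 and 82.8 TPM in those of UPF1-2 cells and 583, 599 and 117 TPM in those of GFP cells, all in total RNA. It was low in replicate 3 of both IPs too, at 46.1 TPM in UPF1-1 IP and 103 TPM in UPF1-2 IP. Without it, the H4 ratio was 0.32 ± 0.01 for UPF1-1 against GFP cells and 0.44 ± 0.15 for UPF1-1 against UPF1-2 cells. For UPF1-2 against GFP cells it was -0.13 ± 0.14 without the gene and below 0 in each number, so that H1, at -0.09 ± 0.16, was then the class nearest 0.

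Many H2A and H2B genes lie head to head and share the space between their starts. Among genes with exactly 1 promoter window, 9 such pairs with overlapping windows were found. Their starts were 214 to 247 bases apart, and both genes were tested in 8. The 4 genes with more than 1 window and those with none were left out, so further pairs may be missing. HIST1H2BG and HIST1H2AE, 232 bases apart, fell together with UPF1-1 and were near 0 with UPF1-2 against GFP cells (-0.05 and -0.01). HIST1H2AD and HIST1H2BF, 222 bases apart, both rose by 0.59 with UPF1-1. Across the 8 pairs, Pearson's r between the partners' log2 differences was 0.96 for UPF1-1 against GFP cells, 0.73 for UPF1-2 against GFP cells and 0.95 for UPF1-1 against UPF1-2 cells. Without the HIST1H2BG pair it was 0.77, 0.72 and 0.47 over 7 pairs. For IP over total RNA it was -0.14 with UPF1-1 and -0.25 with UPF1-2. The pairs share their libraries, so these are descriptions of this set of genes.

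**Figure D4:**
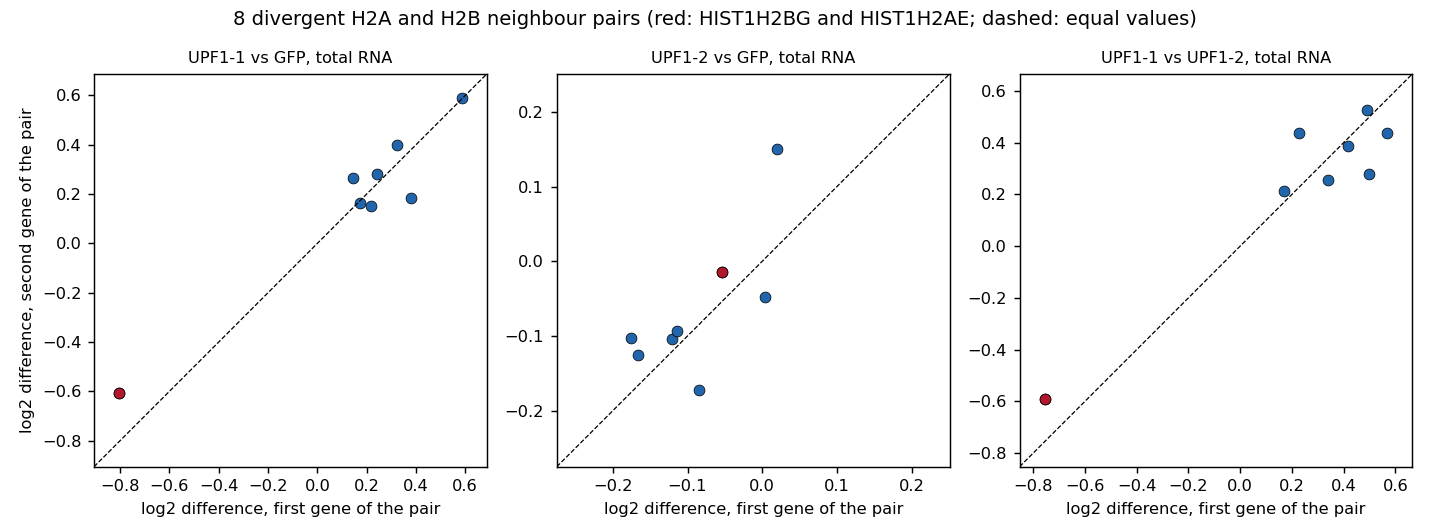
log2 differences in total RNA of the first and second gene (in chromosome order) of 8 head-to-head H2A and H2B pairs, in the 3 comparisons of lines; axis ranges differ between panels, the dashed line marks equal values and the red point the pair HIST1H2BG and HIST1H2AE. The red pair lies at -0.81 and -0.61 for UPF1-1 against GFP cells, apart from the other 7, and near 0 for UPF1-2 against GFP cells.

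RNA recovered with each UPF1 isoform was then compared with total RNA of the same line and replicate number. Relative to the median listed gene, histone RNA was recovered less with both isoforms. Its summed TPM was higher in the IPs, as was that of all listed genes. The histone sum was 27367 ± 1245 TPM in UPF1-1 IP, against 23463 ± 808 TPM in UPF1-1 total RNA. It was 24688 ± 1893 TPM in UPF1-2 IP, against 17400 ± 1490 TPM in UPF1-2 total RNA. The 57 genes held 5.21% ± 0.952 (SD, n = 3) of the listed TPM in UPF1-1 IP, against 14.97% ± 1.43 in UPF1-1 total RNA, and 4.65% ± 0.823 in UPF1-2 IP, against 12.3% ± 1.99 in UPF1-2 total RNA. All 51 tested genes fell with UPF1-1 (51 of 51, where 43.9% of all genes fell and 30.8% rose) and all 51 fell with UPF1-2 (where 44.2% fell and 31.5% rose), by limma over 11969 genes with the line and replicate number together as a block. Within each of the 3 numbers all 51 were lower with both isoforms, against 48.7% of all genes for UPF1-1 and 48.9% for UPF1-2. Without the block 50 fell with each, where 32% of all genes fell and 19.8% rose with UPF1-1 and 33.1% fell and 21.1% rose with UPF1-2. The median log2 IP over total RNA was -2.33 with UPF1-1 and -2.05 with UPF1-2, where it was -0.16 and -0.15 over all genes. Among the other genes, 3.23% were at or below the histone median with UPF1-1 and 4.56% with UPF1-2. These values are relative to the median gene of each library. When medians were not set equal, the difference was above 0 for 43 and below 0 for 8 of the 51 genes with UPF1-1, and above 0 for 50 and below 0 for 1 with UPF1-2. The histone medians were then 0.23 and 0.48, and the median of all genes was 2.40 and 2.38 higher in the IPs. Tested so, 26 histone genes rose and 1 fell with UPF1-1, where 95.8% of all genes rose and 1.25% fell, and 44 rose and none fell with UPF1-2, where 96% rose and 1.07% fell.

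HIST1H3B shows both scales. It had 2295, 2267 and 2319 TPM in UPF1-1 IP, against 2345, 2199 and 2340 TPM in UPF1-1 total RNA, and 2189, 1864 and 2172 TPM in UPF1-2 IP, against 1527, 1471 and 1823 TPM in UPF1-2 total RNA. The raw values with UPF1-1 overlapped, and relative to the library medians the difference was -2.56 ± 0.10 with UPF1-1 and -2.16 ± 0.10 with UPF1-2. The least recovered was HIST1H2AK, a core H2A gene, at -2.84 ± 0.08 with UPF1-1 and -2.59 ± 0.08 with UPF1-2. It had 88.2, 95.4 and 107 TPM in UPF1-1 IP, against 114, 116 and 122 TPM in UPF1-1 total RNA. The most recovered was HIST1H3E, at -1.38 ± 0.10 with UPF1-1 and -1.23 ± 0.10 with UPF1-2. This low-abundance H3 copy had 7.74, 6.77 and 8.36 TPM in UPF1-1 IP, against 3.12, 2.87 and 3.22 TPM in UPF1-1 total RNA.

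By class the medians with UPF1-1 were -2.00 for H1, -2.28 for H2A, -2.41 for H2B, -2.19 for H3 and -2.42 for H4, and with UPF1-2 they were -1.55, -2.05, -2.07, -1.86 and -2.24. HIST1H2AE, HIST2H2AC, HIST1H4J, HIST1H2BC, HIST1H4D and HIST1H4C were between -2.72 and -2.58 with UPF1-1. Of the copies that differed most between lines in total RNA, HIST1H3F was at -2.28 with UPF1-1 and -2.06 with UPF1-2, HIST1H2AL at -2.40 and -2.01, and HIST1H2BI at -2.46 and -2.01. In total RNA HIST1H2AL was higher with UPF1-1 than UPF1-2 in the fit, with raw TPM that overlapped. It had 15.9, 19.8 and 19.2 TPM in UPF1-1 IP and 16.8, 15.5 and 20.4 TPM in UPF1-2 IP, which overlapped too. HIST1H2BI, lower with UPF1-1 in total RNA, had 1.53, 2.78 and 1.99 TPM in UPF1-1 IP and 6.62, 5.71 and 5.62 TPM in UPF1-2 IP, with no overlap. HIST1H2BG had 17.3, 19.3 and 21.7 TPM in UPF1-1 IP and 48.6, 41.1 and 44.8 TPM in UPF1-2 IP. The 9 tested genes with reported polyadenylated forms had medians of -2.28 with UPF1-1 and -2.05 with UPF1-2, close to those of all 51.

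A length-related measure moved with recovery. TPM divides by effective transcript length, so the authors' mean natural log of estimated counts, less that of TPM, is larger for longer transcripts. Across 11934 genes this log2 count per TPM had a Spearman rho of 0.47 with IP over total RNA for UPF1-1 and 0.49 for UPF1-2, across genes of the same libraries. The histone genes had a median of -2.87 relative to the median gene, and 38 of the 51 were in the lowest of 10 equal bins of genes. The 1155 other genes in that bin had a median IP over total RNA of -1.38 with UPF1-1 and -1.49 with UPF1-2, and with UPF1-1 their percentiles 5 and 95 were -3.56 and 0.47. HIST1H3E was the histone gene with the highest count per TPM, at -0.20. The part of length in the low recovery of histone RNA relative to the median gene was not tested. In total RNA the same bin of other genes had medians of -0.05 for UPF1-1 against GFP cells and -0.02 for UPF1-1 against UPF1-2 cells, where the histone medians were 0.24 and 0.33. Across 9315 genes Spearman's rho with the count per TPM was -0.13 and -0.15 in these comparisons. Over all genes, lower counts per TPM thus went with higher values in UPF1-1 cells. The other genes of the lowest bin, where most histone genes lie, had medians below those of the next bin, 0.005 and 0.02. The part of length there was not tested either.

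**Figure D5:**
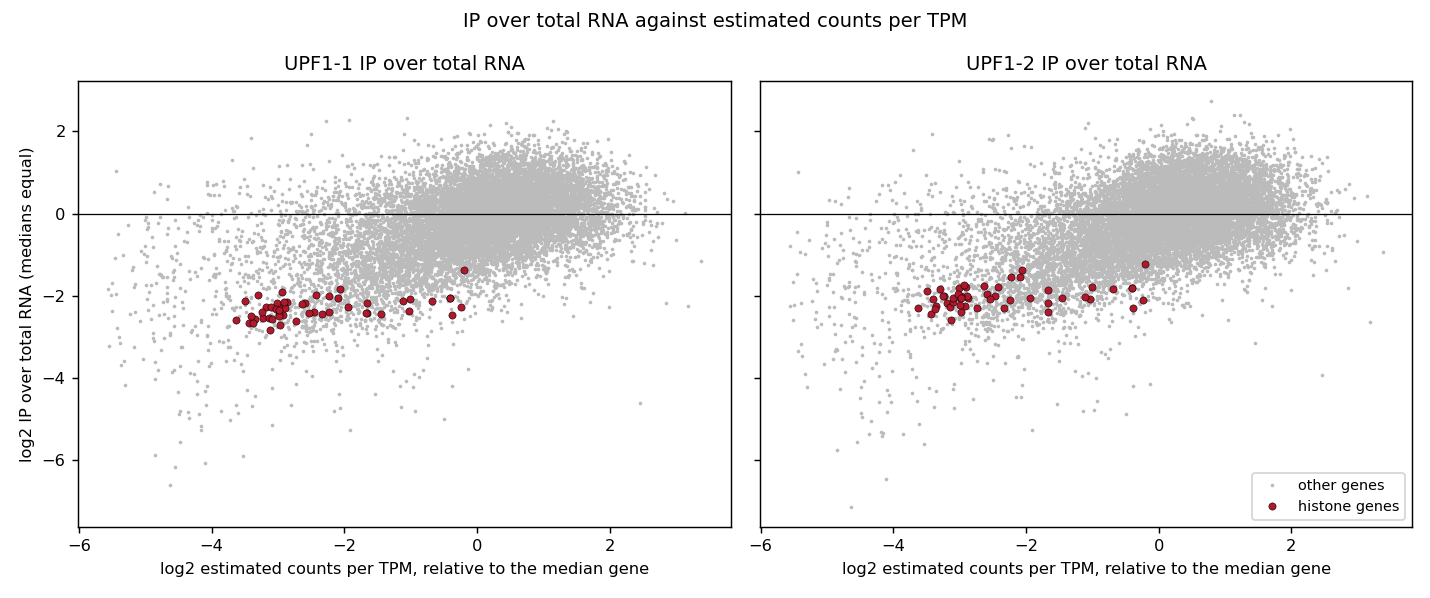
log2 IP over total RNA (library medians equal) against the log2 estimated count per TPM relative to the median gene, with histone genes in red and other genes in grey. The histone genes have medians of -2.33 with UPF1-1 and -2.05 with UPF1-2, and 38 of the 51 are in the lowest of 10 bins of genes by count per TPM.

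The isoforms were compared in recovery as the difference between their IP over total RNA ratios. The median ratio of the histone genes was lower with UPF1-1 than with UPF1-2, and few of the genes passed the test. Of the 51 genes 4 fell and none rose, where 6.27% of all genes fell and 4.43% rose, and 16 had an unadjusted p under 0.05. The share that fell is near that of all genes. The median difference was -0.28, against -0.04 over all genes, and 41 of the 51 were lower within each replicate number, against 33.9% of all genes. A lower median was not particular to histone genes. The other gene lists, described below, had medians from -0.39 (genes of G2 and M phase) to -0.07 (replication-independent histone genes). The ratios share the total RNA libraries of the third comparison, in which histone RNA was higher with UPF1-1, so the differences are not independent of it. In the IPs themselves the summed level was 27367 ± 1245 TPM with UPF1-1 and 24688 ± 1893 TPM with UPF1-2.

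The genes that fell were HIST1H2BG (-0.53 ± 0.14), the linker histone genes HIST1H1C (-0.48 ± 0.12) and HIST1H1D (-0.47 ± 0.11), and HIST1H4A (-0.39 ± 0.10), with adjusted p of 0.041 to 0.047 in limma. HIST1H1E was just outside, at -0.51 ± 0.14 and an adjusted p of 0.051. HIST1H1D had 202, 214 and 267 TPM in UPF1-1 IP and 303, 251 and 295 TPM in UPF1-2 IP, beside 129, 130 and 151 TPM in total RNA of UPF1-1 cells and 124, 118 and 137 TPM in that of UPF1-2 cells. For this gene the IP and total RNA libraries of the isoforms overlapped in raw TPM, while the ratios within each number were lower with UPF1-1. H1 was the class with the lowest summed ratio, -0.49 ± 0.21 (SD over 3 numbers), beside -0.27 ± 0.20 for H2A, -0.29 ± 0.20 for H2B, -0.37 ± 0.23 for H3 and -0.21 ± 0.29 for H4. Leaving out 1 replicate number gave -0.58 to -0.38 for H1, -0.38 to -0.18 for H2A, -0.38 to -0.19 for H2B, -0.47 to -0.25 for H3 and -0.31 to -0.05 for H4, each nearest 0 without replicate 3. No histone gene passed without the block, where 1 histone gene had an unadjusted p under 0.05, and none passed with any 1 replicate number left out.

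Genes that act on histone mRNA or mark the cell cycle give the setting. In UPF1-1 against GFP cells 8.38% of all genes rose and 7.79% fell, and without the block the lists of this paragraph kept 1 call in total RNA, a rise among the genes of G2 and M phase in that comparison. Of 21 tested histone mRNA processing and decay factors, 1 rose and 3 fell with UPF1-1 against GFP cells, with a median of -0.12. ZNF473, a component of the 3′ processing machinery, rose by 0.56, while the decapping enzyme DCP2 differed by -0.73, the exonuclease XRN1 by -0.48 and NPAT, the coactivator of histone transcription, by -0.35. Of 11 replication-independent histone genes 1 rose (H2AFY2, a macroH2A gene, by 0.24) and none fell, with a median of 0.09, and of 8 histone chaperones none passed. Of 24 S phase genes 4 rose and 1 fell, with a median of 0.00; E2F1 rose by 0.52 and PCNA, the replication clamp, by 0.50. Of 18 genes of G2 and M phase 4 rose and 5 fell, with a median of -0.03. In UPF1-1 against UPF1-2 cells 5.49% of all genes rose and 4.02% fell. Of the 24 S phase genes 4 rose and none fell there, with a median of 0.10. Of the 18 genes of G2 and M phase 3 rose and 2 fell, with a median of 0.04. Among the 21 factors none rose and 3 fell, and among the 11 replication-independent histone genes 2 rose and none fell. None of the 8 chaperones passed. In UPF1-2 against GFP cells none of the factors, chaperones, S phase genes or replication-independent histone genes passed, and 1 gene of G2 and M phase rose. The part of cell cycle phase in the histone differences was not tested.

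In the IPs other lists were called in both directions, where 30.8% of all genes rose and 43.9% fell with UPF1-1 and 31.5% rose and 44.2% fell with UPF1-2. Of the 24 S phase genes 14 rose and 6 fell with UPF1-1, and 17 rose and 3 fell with UPF1-2, with medians of 0.25 and 0.65. Of the 23 tested processing and decay factors 10 rose and 8 fell with UPF1-1, and 12 rose and 6 fell with UPF1-2; UPF2, a partner of UPF1, rose by 1.70 and 1.91, and LSM10, a protein of the U7 particle, fell by 1.58 and 1.62. Of the 11 replication-independent histone genes 1 rose and 8 fell with UPF1-1, and 2 rose and 7 fell with UPF1-2, with medians of -0.42 and -0.70. H2AFJ (-2.39 and -2.17), H3F3A (-1.94 and -1.93) and H2AFZ (-1.26 and -1.72) were the lowest of them, while H3F3B, which encodes the same H3.3 protein as H3F3A, rose by 0.27 and 0.21. In the difference between isoforms, 10 of the 24 S phase genes and 6 of the 19 genes of G2 and M phase were lower with UPF1-1, where 6.27% of all genes were, with medians of -0.32 and -0.39. No gene of the table was called for this difference without the block or without equal medians, these lists included.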

How the data were processed

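The deposited table held TPM for 15 libraries, and per the submitters' processing notes reads were trimmed with cutadapt and quantified with kallisto on hg19, with no versions given. Per the file headers it also held IP to Input ratios, log2 fold changes, sleuth p-values and q-values, and effects and mean counts on the natural log scale. The deposited ratios equalled the recomputed ones within 1e-06. The number of per-sample columns that matched no sample was 0.

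Tests ran on log2 of TPM plus 0.5, for genes that reached 1 TPM in 3 or more of the libraries fitted, after library medians were set equal. They used limma 3.58.1 (R 4.3.3) with an intensity trend (2-sided, Benjamini-Hochberg over all genes, threshold 0.05). Total RNA used 9 libraries with the replicate number as a block, and IP against total RNA 12 libraries with the line and replicate number together as a block. After group means were removed, same-numbered libraries correlated at 0.70 to 0.95 in total RNA (9 pairs) and 0.57 to 0.91 in the IP fit (18 pairs), and differently numbered ones at -0.89 to 0.80 and -0.86 to 0.74, so same-numbered libraries were treated as pairs; the deposited ratios were also formed within the number. These ranges overlap and replicate 3 stands apart, so the correlations do not settle whether replicates 1 and 2 were paired by number. Nothing says whether replicates were separate cultures, and p-values then reflect how these libraries vary, which may be technical. Simulated data with the replicate effect built in were used to test the fits. They cannot show whether the block suits these libraries. No depth was given, so no counting interval could be formed.

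The text names up to 8 genes each way per comparison, by size of difference, among those past the threshold whose groups did not overlap (total RNA) or whose 3 within-number differences shared a sign (IP), and the most abundant gene of each class; of other lists, up to 4 genes past the threshold. Genes and lists were chosen with earlier results of these data known. The measure of counts per TPM, the promoter motifs and the neighbour pairs were added after the data were seen. Alternatives were other scalings and pseudocounts, no filter, no block, and leaving out each replicate. Symbols are those of the table, and promoter windows are from RefSeq, matched by older symbol.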

Additional observations from a re-analysis of the deposited data

Results flagged for a closer look

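In total RNA 31 histone genes rose and 3 fell by limma's test of UPF1-1 against UPF1-2 itself, where 5.49% of all genes rose and 4.02% fell. Of these histone genes, 17 of the rises and the 3 falls had no overlap of the groups after the library medians were set equal. No share of all genes was counted under that added rule. The log2 differences of the 8 largest of the 17 rises without overlap were 0.63 for HIST1H4H, 0.57 for HIST1H2AD, 0.50 for HIST1H2AM, 0.49 for HIST1H2BL, 0.49 for HIST1H4J, 0.48 for HIST2H2AA4, 0.44 for HIST1H2BF and 0.42 for HIST1H2BC. The falls were -0.99 for HIST1H2BI, -0.75 for HIST1H2BG and -0.59 for HIST1H2AE. In recovery over total RNA, 4 genes differed between the isoforms by the interaction term, at -0.53 for HIST1H2BG, -0.48 for HIST1H1C, -0.47 for HIST1H1D and -0.39 for HIST1H4A. None of these passed without the block.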

How the results depend on the processing

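The direction of the IP results depends on the library medians. Blocked without equal medians, 26 histone genes rose and 1 fell with UPF1-1, where 95.8% of all genes rose and 1.25% fell. With UPF1-2, 44 rose and 0 fell, where 96% of all genes rose and 1.07% fell. Without the block either, 13 and 31 rose and 0 fell, and the share of all genes was not counted there. Without equal medians 43 genes with UPF1-1 and 50 with UPF1-2 had a difference above 0; among the genes named for these comparisons they were, with UPF1-1, HIST1H1E (0.50), HIST2H2AA4 (0.13) and HIST2H2BF (0.17), and with UPF1-2, HIST1H1E (0.97), HIST1H2AE (0.12), HIST1H2AG (0.23), HIST1H2BC (0.22), HIST1H3B (0.37), HIST1H4C (0.29), HIST1H4D (0.24), HIST1H4J (0.082), HIST2H2AA4 (0.44), HIST2H2AC (0.20), HIST2H2BF (0.42) and HIST2H4A (0.14). The class sums became 0.53, 0.21, 0.16, 0.14 and 0.15 with UPF1-1 and 0.99, 0.45, 0.42, 0.48 and 0.33 with UPF1-2 (H1, H2A, H2B, H3, H4). Under upper-quartile scaling all 51 fell in both IPs, with sums of -1.77, -2.32, -2.34, -2.28 and -2.43 with UPF1-2.

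Without the replicate block (the pairing by number), UPF1-1 against GFP cells had 0 higher and 2 lower (1 lower without equal medians), UPF1-2 against GFP cells 0 higher and 1 lower (0 lower without equal medians), and UPF1-1 against UPF1-2 cells and the isoform difference in recovery 0 in both directions. Leaving out 1 replicate number gave 3 to 22 higher and 4 lower for UPF1-1 against GFP cells, 0 to 1 higher and 1 to 2 lower for UPF1-2 against GFP cells, 0 to 38 higher and 0 to 3 lower for UPF1-1 against UPF1-2 cells, 0 higher and 51 lower in both IPs, and 0 both ways for the isoform difference. That difference had 0 lower without equal medians or with a pseudocount of 1. Under upper-quartile scaling it had 2 lower, of which 1 was among the 4 of the main fit. With a pseudocount of 0.1 it had 3 lower, of which 2 were among those 4. Shares of all genes were not counted with a replicate number left out, under upper-quartile scaling or with other pseudocounts. For UPF1-2 against GFP cells leaving out 1 replicate number gave -0.17 to 0.000593 for HIST1H1E and -0.16 to 0.00296 for HIST2H2BF, positive without replicate 3. For UPF1-1 against GFP cells the class sums were 0.35, 0.36, 0.32, 0.40 and 0.37 without equal medians, and 0.24, 0.27 and 0.24 for H2A, H3 and H4 under upper-quartile scaling. The causes were not tested. Of 72 counts over the other gene lists, 34 were smaller by over 1.5 times without the block. Other scalings, pseudocounts and filters kept the remaining counts of histone genes within 1.5 times. The table gives no counts for single libraries, only the authors' mean natural log of estimated counts in each comparison. For HIST1H2BI that mean was 5.21 in UPF1-1 against GFP cells. The precision of such low copies in each library cannot be stated from it.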
